A study of Rattus norvegicus with 12 samples.

Results

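The genes described here make ribosomes. They are 34 listed genes of the nucleolus in rat liver: core proteins of the box H/ACA and box C/D small nucleolar ribonucleoproteins (snoRNPs), abundant nucleolar proteins, subunits of RNA polymerase I, and factors that mature the 40S and the 60S ribosomal subunits. Each gene was followed through the probe set with the highest mean over the 12 arrays, among those that the platform annotation gives to that gene alone. Such a probe set was found for 33 of the 34 genes, of 14217 genes on the array, and all 33 passed the filter on dim probe sets, as did 11842 genes in all. The exception was Npm1 (nucleophosmin), because its probe sets are also assigned to a pseudogene.

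The series measured liver RNA of adult male Sprague-Dawley rats, 10 weeks old, on Affymetrix Rat Genome 230 2.0 arrays, with 1 liver per array and no pooling. Myclobutanil and propiconazole were given at 300 mg/kg/day and triadimefon at 175 mg/kg/day, by gavage every 24 hours over a 72-hour exposure, to 3 rats each. The fourth group was 3 control rats of the same sex, strain and age, and the labels do not say what these were given by gavage. No genetic change was named for any group. All 3 compounds are triazole fungicides, which block the fungal sterol demethylase Cyp51 and are known inducers of drug-metabolising enzymes in rodent liver.

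Ribosome assembly starts in the nucleolus, where RNA polymerase I copies the ribosomal RNA genes into a long precursor. Box C/D snoRNPs methylate this precursor and box H/ACA snoRNPs convert chosen uridines to pseudouridine, while the small subunit processome and the large subunit assembly factors fold it, cut it and load it with ribosomal proteins. Genes of the pathway are known to be regulated together with cell growth, with Myc as a well-known activator, and the pathway is strongly used when hepatocytes enlarge or prepare to divide.

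Values are the authors' deposited scores per probe set, on a scale that behaves like a logarithm but whose base and centring are unknown, so differences are given in score units and not as fold changes. The median score of every array was 0.0461 after quantile normalization. Scores can be compared between rats for 1 probe set but not between probe sets, since probes differ in brightness. A gene was called when its adjusted p in limma (Benjamini-Hochberg over 21729 probe sets) was under 0.05, and "rose" and "fell" are used of called genes alone. Errors after ± on a difference are standard errors of the fit, with n = 3 rats per group.

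Array quality and cell type markers bear on what follows. Myclobutanil replicate 1 was an unusual array, with a median of 0.157 before normalization where the remaining 11 had 0.0182 to 0.0552. It also correlated less with the rest (median r = 0.927 over probe sets, against 0.962 to 0.982). The gap between the 3′ and 5′ probe sets of Gapdh, a sign of RNA integrity, averaged 0.659 ± 0.252 (SD, n = 3) in control, 0.624 ± 0.128 with myclobutanil, 0.435 ± 0.106 with propiconazole and 0.587 ± 0.212 with triadimefon. The same gap for beta-actin averaged 0.682 ± 0.202, 0.807 ± 0.145, 0.636 ± 0.0925 and 0.838 ± 0.1999. Hepatocyte markers (12 tested, Alb among them) averaged 3.28 to 3.32 per array in control, 3.05 to 3.28 with myclobutanil, 3.23 to 3.33 with propiconazole and 3.30 to 3.32 with triadimefon. The lowest of these myclobutanil values, 3.05, was that of replicate 1, the unusual array. With myclobutanil 10 of the 12 were below 0 and Cyp2e1 fell by 0.59 (adjusted p = 0.0253). With propiconazole 5 of the 12 were above 0 and 6 below, with a median difference of -0.02. Apoa1 was the 1 hepatocyte marker called with propiconazole, and it rose by 0.49 (adjusted p = 0.0278). For all marker counts here, the shares of all probe sets called lower were 0.787% with myclobutanil and 0.621% with propiconazole. The share called higher with propiconazole was 0.810%. Of 10 Kupffer cell and macrophage markers, 5 fell with myclobutanil (Clec4f, Cd5l, C1qa, C1qc and Adgre1), and 9 of the 10 were below 0. Their list averaged 0.430 to 0.887 on the myclobutanil arrays against 1.16 to 1.30 on the control arrays. With propiconazole and triadimefon 0 of the 10 were called in limma, also 0 at an unadjusted p under 0.05, and the list averaged 1.12 to 1.23 and 1.09 to 1.22. Of 5 endothelial markers Kdr fell by 0.55 with myclobutanil (adjusted p = 0.0407) and by 0.64 with propiconazole (adjusted p = 0.0268). With myclobutanil, propiconazole and triadimefon 3, 4 and 3 of the 5 were below 0, with medians of -0.01, -0.07 and -0.02. The endothelial list averaged 0.839 to 1.001 in control and 0.786 to 0.850, 0.698 to 0.806 and 0.831 to 0.899 with myclobutanil, propiconazole and triadimefon, and the propiconazole arrays alone lay below all control arrays. Of 9 stellate cell markers Lrat fell by 0.36 with myclobutanil (adjusted p = 0.0322) and by 0.40 with propiconazole (adjusted p = 0.0231). With myclobutanil, propiconazole and triadimefon 7, 6 and 3 of the 9 were below 0, with medians of -0.03, -0.02 and 0.099. The highest stellate difference with myclobutanil was 0.56. The stellate list averaged 0.541 to 0.675 in control and 0.471 to 0.776, 0.466 to 0.555 and 0.578 to 0.961 with these compounds. None of 4 cholangiocyte markers was called. Their list mean lay above control (0.119 to 0.163) on all treated arrays (0.214 to 0.255, 0.203 to 0.386 and 0.171 to 0.341). Yet only 2, 2 and 3 of the 4 were above 0 with myclobutanil, propiconazole and triadimefon. Their median differences were 0.005, 0.02 and 0.06, and the largest single differences 0.42, 0.52 and 0.39. None of 9 leukocyte markers was called. In whole liver, fewer cells of a type and less RNA per cell cannot be told apart, and the part of these marker values in the values below was not tested.

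Part of the ribosome assembly genes rose in the livers of treated rats, and propiconazole gave the most calls. Propiconazole raised 10 of the 33 genes (30.3%), where 0.810% of all probe sets tested were called higher; the 10 were Gar1, Nop56, Ddx21, Heatr1, Wdr43, Ltv1, Tsr1, Wdr12, Rrs1 and Gnl3. Triadimefon raised 4 (12.1%, against 0.488% of all probe sets), namely Gar1, Ddx21, Wdr43 and Gnl3. Myclobutanil raised 3 (9.1%, against 1.03%), namely Gar1, Ltv1 and Nip7. No member was called lower with any compound. Over all probe sets 0.787%, 0.621% and 0.281% were called lower with myclobutanil, propiconazole and triadimefon, and 1.82%, 1.43% and 0.769% were called in either direction.

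The remaining members mostly lay on the same side of 0. Differences were above 0 in 32 of 33 genes with propiconazole, 28 with triadimefon and 26 with myclobutanil, where 43.4%, 43.4% and 44.6% of all probe sets were above 0. The median difference of the 33 genes was 0.21 with propiconazole, 0.12 with triadimefon and 0.15 with myclobutanil, beside -0.012, -0.013 and -0.014 over all probe sets. At an unadjusted p under 0.05, 23, 14 and 17 members were higher, where 7.73%, 7.02% and 9.20% of all probe sets were. None was lower at that level, against 6.78%, 6.42% and 11.9% of all probe sets. The control rats are shared by the 3 comparisons, so the values of the 3 compounds are not separate evidence.

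**Figure D1:**
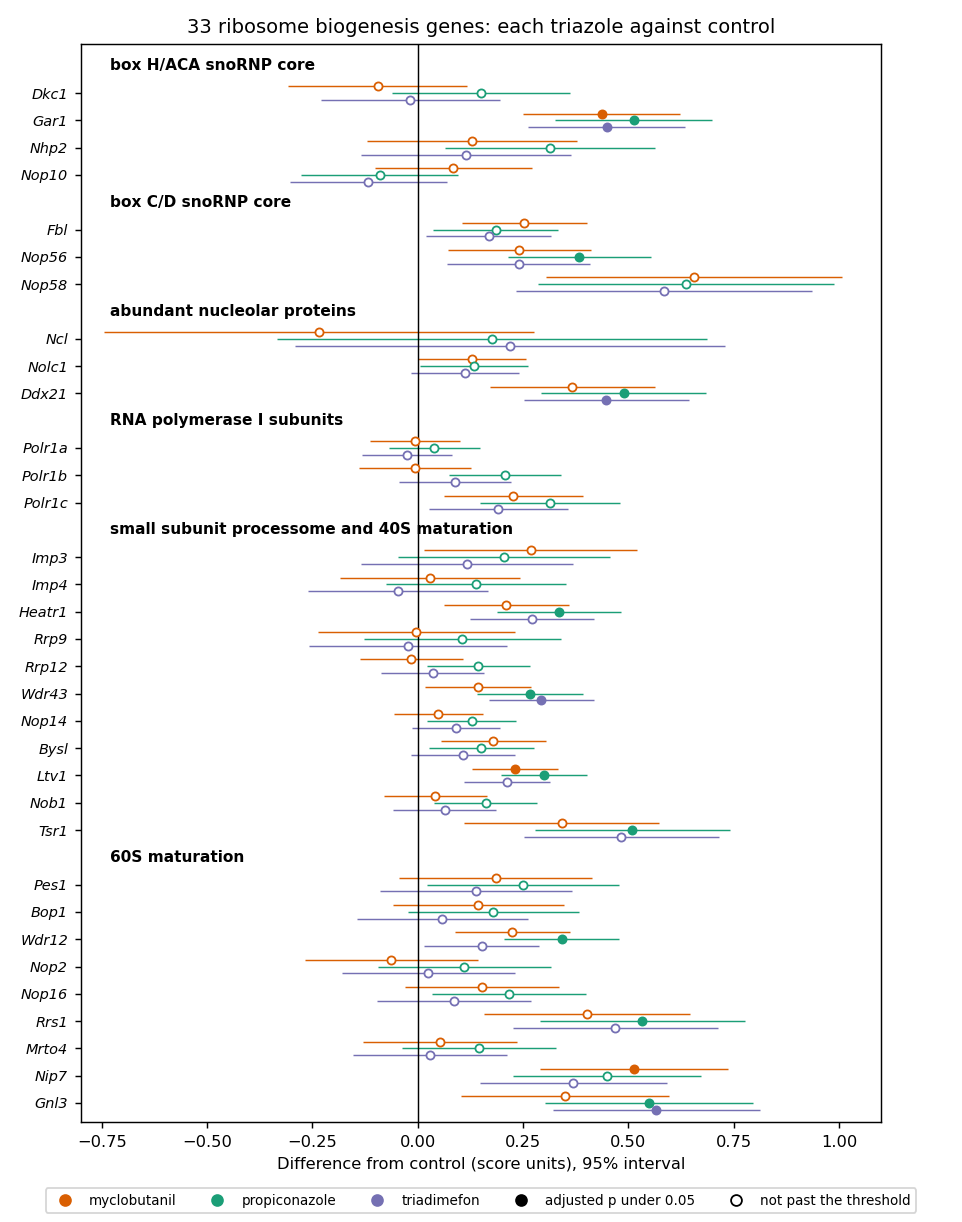
Difference in score from control (horizontal axis, score units) for the 33 genes, grouped by role, with 1 mark per compound; bars are 95% confidence intervals from limma and filled marks are called genes. Filled marks number 10 for propiconazole, 4 for triadimefon and 3 for myclobutanil, all right of 0.

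Per array, the mean score of the 33 genes was 0.605, 0.555 and 0.601 in the control rats. It was 0.720, 0.742 and 0.810 with myclobutanil, 0.837, 0.830 and 0.882 with propiconazole and 0.753, 0.826 and 0.723 with triadimefon. All 9 treated livers lay above all 3 control livers on this mean, which is given as a description of the list. Gene by gene, all 3 propiconazole arrays lay above all 3 control arrays in 23 members, against 12.1% of all probe sets. For myclobutanil this held in 16 members (10.2% of all probe sets) and for triadimefon in 15 (12.5%). Separation downward was seen in 1 member with propiconazole and in 0 with myclobutanil and triadimefon, against 15.7%, 13.1% and 15.8% of all probe sets.

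Of the 4 box H/ACA proteins 1 rose. Gar1, a core protein of these pseudouridine-making particles, scored 0.15, 0.22 and 0.27 in the control rats, 0.59, 0.58 and 0.77 with myclobutanil, 0.75, 0.59 and 0.83 with propiconazole and 0.73, 0.74 and 0.50 with triadimefon. All 9 treated arrays lay above all 3 control arrays. Gar1 rose by 0.44 ± 0.085 with myclobutanil (adjusted p = 0.0344), 0.51 ± 0.085 with propiconazole (adjusted p = 0.0199) and 0.45 ± 0.085 with triadimefon (adjusted p = 0.0384), and was the 1 gene of the 33 called with all 3 compounds.

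Its partners were not called. Dkc1 (dyskerin), the pseudouridine synthase of the particle, scored 0.59, 0.61 and 0.59 in control and 0.30, 0.63 and 0.57 with myclobutanil. With propiconazole it scored 0.68, 0.74 and 0.82, all above control, and with triadimefon 0.43, 0.77 and 0.53. Its differences were -0.10 ± 0.097, 0.15 ± 0.097 and -0.02 ± 0.097, and without myclobutanil replicate 1 the first was 0.006; it also turned above 0 with array weights (0.02), and the triadimefon value turned above 0 with median centring (0.03) and on the deposited values (0.02). Nhp2, a core protein of the particle, differed by 0.13 ± 0.11, 0.31 ± 0.11 and 0.11 ± 0.11 (adjusted p = 0.528, 0.229 and 0.714). Nop10, the smallest of the 4 proteins, was the 1 member with all 3 propiconazole arrays (2.25, 2.19 and 2.20) below all 3 control arrays (2.28, 2.36 and 2.28), but its difference of -0.09 ± 0.085 was not called (adjusted p = 0.678).

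Among the box C/D proteins, which carry out ribose methylation, Nop56 rose with propiconazole. Nop56, a scaffold of the particle, scored 0.82, 0.76 and 0.79 in control and 1.09, 1.11 and 1.32 with propiconazole, a rise of 0.38 ± 0.077 (adjusted p = 0.0384). On the myclobutanil arrays it scored 1.05, 0.98 and 1.07 and on the triadimefon arrays 0.95, 1.15 and 0.996. No treated array overlapped a control array, yet the differences of 0.24 ± 0.077 with both compounds did not pass (adjusted p = 0.119 and 0.208).

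Nop58, the partner scaffold of Nop56, had the largest difference of the whole list with each compound and still was not called. It scored 0.66, 0.89 and 0.97 in control, 1.58, 1.22 and 1.70 with myclobutanil, 1.60, 1.12 and 1.72 with propiconazole and 1.37, 1.52 and 1.39 with triadimefon. Again no treated array overlapped a control array. The myclobutanil and propiconazole arrays were far apart (SD 0.246 and 0.313), the triadimefon arrays closer together (SD 0.0837). The standard error below is 1 estimate from all 4 groups. The differences were 0.66 ± 0.16, 0.64 ± 0.16 and 0.58 ± 0.16, with adjusted p = 0.066, 0.0855 and 0.144. Fbl (fibrillarin), the methyltransferase of the particle, scored 0.63, 0.57 and 0.50 in control and 0.84, 0.75 and 0.87 with myclobutanil, a difference of 0.25 ± 0.068 (adjusted p = 0.0807); it differed by 0.18 and 0.17 with propiconazole and triadimefon, neither called.

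Of the 3 abundant nucleolar proteins, Ddx21 rose with propiconazole and triadimefon. Ddx21, an RNA helicase that works in ribosomal RNA transcription and processing, scored 0.42, 0.46 and 0.44 in control, 0.59, 0.79 and 1.02 with myclobutanil, 0.97, 0.87 and 0.94 with propiconazole and 0.87, 0.93 and 0.85 with triadimefon. Every treated array was above control, and the myclobutanil arrays were the most spread out. It rose by 0.49 ± 0.089 with propiconazole (adjusted p = 0.0276) and 0.45 ± 0.089 with triadimefon (adjusted p = 0.0475), while the myclobutanil difference of 0.37 ± 0.089 missed the threshold (adjusted p = 0.0654).

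Nolc1, a chaperone of snoRNPs, had small differences of 0.13, 0.13 and 0.11, each ± 0.058, none called, although all treated arrays lay above control. Ncl (nucleolin), a major RNA-binding protein of the nucleolus, scored 1.46, 1.20 and 1.19 in control and 0.34, 1.36 and 1.45 with myclobutanil. The low value is that of myclobutanil replicate 1, the unusual array. With propiconazole Ncl scored 1.36, 1.57 and 1.44 and with triadimefon 1.38, 1.62 and 1.51, so all 3 groups overlapped control; its differences of -0.23, 0.18 and 0.22, each ± 0.23, were not called.

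None of the 3 RNA polymerase I subunits was called with any compound. The catalytic subunit Polr1a was flat: it scored 0.40, 0.40 and 0.33 in control, and its differences of -0.01, 0.04 and -0.03, each ± 0.049, made it the 1 member within 0.1 of control with all 3 compounds. Polr1b, the second-largest subunit, scored 0.25, 0.19 and 0.21 in control, 0.05, 0.32 and 0.26 with myclobutanil, 0.40, 0.48 and 0.40 with propiconazole and 0.32, 0.30 and 0.30 with triadimefon. The propiconazole and triadimefon arrays lay above control and the myclobutanil arrays on both sides of it. Its differences were -0.01 ± 0.060, 0.21 ± 0.060 and 0.09 ± 0.060 (adjusted p = 0.959, 0.136 and 0.575), and the first was above 0 with median centring (0.004), on the deposited values (0.03), with array weights (0.10) and without myclobutanil replicate 1 (0.07) or control replicate 1 (0.008). Polr1c, a subunit shared with RNA polymerase III, differed by 0.23 ± 0.075, 0.31 ± 0.075 and 0.19 ± 0.075 (adjusted p = 0.128, 0.0733 and 0.302).

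Of the 11 factors of the small subunit 4 rose with propiconazole (Heatr1, Wdr43, Ltv1 and Tsr1), 1 with triadimefon (Wdr43) and 1 with myclobutanil (Ltv1). Ltv1, an export and maturation factor of the pre-40S particle, scored 0.26, 0.34 and 0.33 in control, 0.58, 0.48 and 0.57 with myclobutanil, 0.62, 0.61 and 0.61 with propiconazole and 0.56, 0.54 and 0.48 with triadimefon. All treated arrays lay above control, and the propiconazole arrays were the closest together. Ltv1 rose by 0.23 ± 0.046 with myclobutanil (adjusted p = 0.0388) and by 0.30 ± 0.046 with propiconazole (adjusted p = 0.0153); the triadimefon difference of 0.21 ± 0.046 was not called (adjusted p = 0.0705).

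Wdr43, a subunit of the complex that first binds the ribosomal RNA precursor, scored 0.32, 0.34 and 0.40 in control, 0.42, 0.51 and 0.57 with myclobutanil, 0.64, 0.55 and 0.67 with propiconazole and 0.65, 0.71 and 0.58 with triadimefon. All treated arrays were above control, the lowest myclobutanil array by little. It rose by 0.27 ± 0.057 with propiconazole (adjusted p = 0.0478) and 0.29 ± 0.057 with triadimefon (adjusted p = 0.0441), and differed by 0.14 ± 0.057 with myclobutanil (adjusted p = 0.189).

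Heatr1, another early processome protein, scored -0.03, -0.03 and -0.13 in control and 0.28, 0.23 and 0.30 with propiconazole, a rise of 0.34 ± 0.067 (adjusted p = 0.0377). It scored -0.02, 0.16 and 0.28 with myclobutanil and 0.27, 0.22 and 0.13 with triadimefon, differences of 0.21 and 0.27 that were not called (adjusted p = 0.119 and 0.105). The treated arrays lay above control, myclobutanil replicate 1 barely so.

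Tsr1, which sits on the pre-40S particle as it matures, scored 0.64, 0.57 and 0.66 in control and 1.14, 1.19 and 1.07 with propiconazole, a rise of 0.51 ± 0.11 (adjusted p = 0.0415). On the other treated arrays it scored 0.70, 0.98 and 1.21 (myclobutanil) and 1.08, 1.16 and 1.08 (triadimefon). Here too no treated array overlapped control, and the differences of 0.34 and 0.48 were not called (adjusted p = 0.11 and 0.069).

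The other 7 small subunit factors were not called with any compound. They were Imp3, Imp4 and Rrp9 (all bound to U3, the snoRNA of the processome), Nop14, the assembly factor Rrp12, Bysl, and Nob1, the nuclease that makes the last cut of 18S ribosomal RNA. Their differences were all positive with propiconazole, from 0.11 for Rrp9 to 0.21 for Imp3. With myclobutanil they ran from -0.02 for Rrp12 to 0.27 for Imp3, and with triadimefon from -0.05 for Imp4 to 0.12 for Imp3. The Rrp12 value with myclobutanil was above 0 on the deposited values (0.02), with array weights (0.01), as the mean of its probe sets (0.11) and without control replicate 1 (0.006), control replicate 3 (0.002) or myclobutanil replicate 1 (0.04).

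Among the 9 large subunit factors 3 rose with propiconazole, 1 with triadimefon and 1 with myclobutanil. Gnl3 (nucleostemin), a nucleolar GTPase abundant in proliferating cells, scored 1.04, 0.95 and 1.24 in control, 1.19, 1.54 and 1.55 with myclobutanil, 1.76, 1.57 and 1.55 with propiconazole and 1.58, 1.69 and 1.66 with triadimefon. The propiconazole and triadimefon arrays lay clear of control, and 1 myclobutanil array lay within its range. Gnl3 rose by 0.55 ± 0.11 with propiconazole (adjusted p = 0.0406) and 0.57 ± 0.11 with triadimefon (adjusted p = 0.0475), and differed by 0.35 ± 0.11 with myclobutanil (adjusted p = 0.12).

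Wdr12, which forms a complex with Pes1 and Bop1, scored 0.46, 0.33 and 0.38 in control, 0.74, 0.53 and 0.57 with myclobutanil, 0.68, 0.79 and 0.73 with propiconazole and 0.56, 0.56 and 0.50 with triadimefon. All treated arrays were above control. Wdr12 rose by 0.34 ± 0.062 with propiconazole (adjusted p = 0.0276); the differences of 0.22 with myclobutanil and 0.15 with triadimefon were not called (adjusted p = 0.0866 and 0.322). Its partners Pes1 and Bop1 differed by 0.25 and 0.18 with propiconazole, and neither was called.

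Rrs1, which helps to load the 5S ribonucleoprotein onto the large subunit, scored 0.17, 0.34 and 0.40 in control and 1.06, 0.66 and 0.79 with propiconazole, a rise of 0.53 ± 0.11 (adjusted p = 0.0431). It scored 0.62, 0.74 and 0.75 with myclobutanil and 0.93, 0.80 and 0.59 with triadimefon, above control throughout, with differences of 0.40 and 0.47 that were not called (adjusted p = 0.0863 and 0.091).

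Nip7, a factor of 60S assembly, was the 1 gene called with myclobutanil alone. It scored 0.41, 0.43 and 0.49 in control, 1.14, 0.78 and 0.94 with myclobutanil, 0.91, 0.72 and 1.05 with propiconazole and 0.90, 0.83 and 0.71 with triadimefon. All treated arrays lay well above control. Nip7 rose by 0.51 ± 0.10 with myclobutanil (adjusted p = 0.0356), and differed by 0.45 ± 0.10 with propiconazole (adjusted p = 0.0587) and 0.37 ± 0.10 with triadimefon (adjusted p = 0.144). The direct difference between myclobutanil and propiconazole was 0.06 (95% confidence interval -0.16 to 0.29, adjusted p = 0.804) and turned below 0 with median centring (-0.008), with array weights (-0.09), without myclobutanil replicate 1 (-0.03) and without propiconazole replicate 2 (-0.02).

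Nop2, a methyltransferase of 28S ribosomal RNA, Nop16 and Mrto4 were not called. Nop2 differed by -0.06, 0.11 and 0.03 with myclobutanil, propiconazole and triadimefon, Nop16 by 0.15, 0.22 and 0.09, and Mrto4 by 0.05, 0.15 and 0.03.

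**Figure D2:**
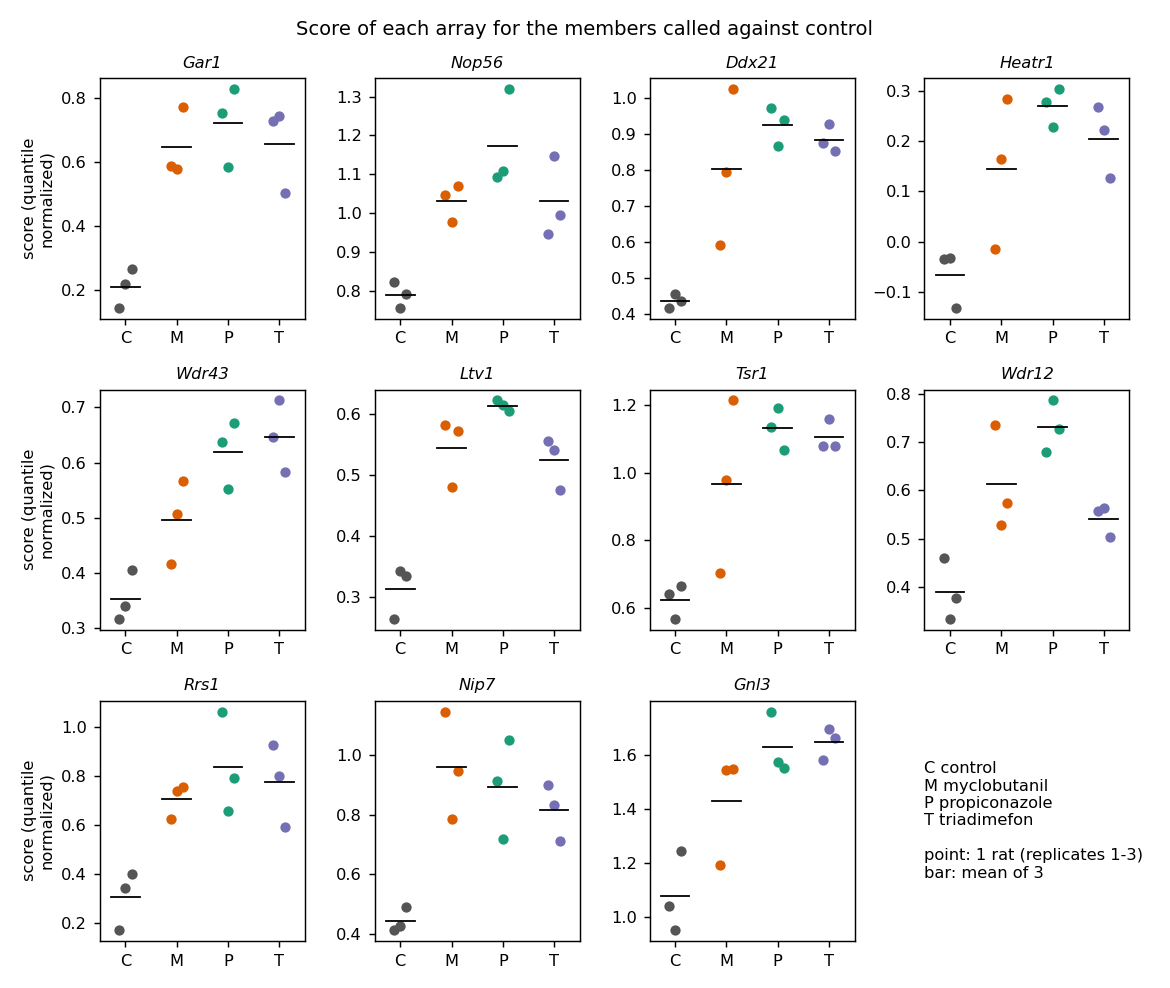
Score (vertical axis, deposited scale after quantile normalization) of the 11 genes called with at least 1 compound, with a point per rat and a bar at the mean of the 3 rats in each group. In 10 of the 11 panels every treated point lies above every control point; in Gnl3 1 myclobutanil rat, at 1.19, lies under the highest control rat, at 1.24.

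Counted by gene, 11 of the 33 were called with at least 1 compound, 5 with at least 2 (Gar1, Ddx21, Wdr43, Ltv1 and Gnl3) and 22 with none. In 12 genes every array of all 3 compounds lay above every control array: Gar1, Nop56, Nop58, Nolc1, Ddx21, Heatr1, Wdr43, Ltv1, Tsr1, Wdr12, Rrs1 and Nip7. With myclobutanil, propiconazole and triadimefon taken singly, 10.2%, 12.1% and 12.5% of all probe sets lay so. Differences were above 0 with all 3 compounds in 24 genes, and 9 were below 0 with at least 1 compound: Dkc1, Nop10, Ncl, Polr1a, Polr1b, Imp4, Rrp9, Rrp12 and Nop2. Taken singly, 44.6%, 43.4% and 43.4% of all probe sets were above 0. The shares of all probe sets meeting either rule with all 3 compounds were not counted, and the 3 compounds share their control rats.

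Some genes have further probe sets, and these did not always give the same call. Rrp12 has a dimmer probe set that rose with myclobutanil (0.30, adjusted p = 0.0358), propiconazole (0.39, adjusted p = 0.0153) and triadimefon (0.31, adjusted p = 0.0427), while the brighter one followed above was not called. The dimmest probe set of Rrp12 differed by 0.04, 0.10 and 0.07 and was not called either. A dimmer probe set of Nolc1 rose with propiconazole (0.55, adjusted p = 0.0411) and was not called with myclobutanil (0.27) or triadimefon (0.44). A still dimmer one of Nolc1 differed by 0.0001, 0.12 and 0.03 with myclobutanil, propiconazole and triadimefon and was not called. For Wdr43 the dimmer probe set rose with propiconazole (0.31, adjusted p = 0.0263) and missed the threshold with triadimefon (0.24, adjusted p = 0.0797). Those of Ddx21 and Nop56 differed by 0.28 and 0.25 with propiconazole and were not called. With triadimefon, where Ddx21 was called above, its dimmer probe set differed by 0.12 and was not called (adjusted p = 0.682). These probe sets were chosen after their values were seen.

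To show what sequence these genes carry at their starts, promoter windows from RefSeq are shown for Gar1, Ltv1, Ddx21 and Gnl3, 4 of the 5 genes called with at least 2 compounds. The windows run from 250 bases before to 50 after the start site, on build GRCr8, and are printed 5′ to 3′ on the gene's own strand, the minus strand in all 4, with motif matches in capitals. Gar1 lies at chr2:221056700-221056999, Ltv1 at chr1:9398508-9398807, Ddx21 at chr20:31097189-31097488 and Gnl3 at chr16:6219733-6220032. Gar1 and Ddx21 hold an ETS motif, Gnl3 an E-box, and Ltv1 an E-box and 2 ETS motifs.
Gar1: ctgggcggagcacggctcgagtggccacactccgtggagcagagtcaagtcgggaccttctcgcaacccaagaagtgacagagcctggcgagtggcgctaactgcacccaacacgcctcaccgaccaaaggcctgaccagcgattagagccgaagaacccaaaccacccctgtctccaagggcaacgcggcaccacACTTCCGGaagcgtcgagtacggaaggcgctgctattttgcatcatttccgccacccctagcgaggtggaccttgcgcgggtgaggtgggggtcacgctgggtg
Ltv1: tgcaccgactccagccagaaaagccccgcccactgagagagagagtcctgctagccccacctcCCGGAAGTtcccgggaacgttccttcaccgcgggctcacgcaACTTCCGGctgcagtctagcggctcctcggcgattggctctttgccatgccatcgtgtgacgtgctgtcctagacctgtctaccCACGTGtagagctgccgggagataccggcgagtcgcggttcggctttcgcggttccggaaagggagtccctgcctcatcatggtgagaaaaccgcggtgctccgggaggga
Ddx21: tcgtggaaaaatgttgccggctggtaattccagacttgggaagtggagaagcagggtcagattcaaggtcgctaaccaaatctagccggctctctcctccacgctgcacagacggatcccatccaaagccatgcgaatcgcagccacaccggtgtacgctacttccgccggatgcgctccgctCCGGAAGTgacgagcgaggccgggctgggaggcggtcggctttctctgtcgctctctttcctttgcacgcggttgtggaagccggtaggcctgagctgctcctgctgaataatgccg
Gnl3: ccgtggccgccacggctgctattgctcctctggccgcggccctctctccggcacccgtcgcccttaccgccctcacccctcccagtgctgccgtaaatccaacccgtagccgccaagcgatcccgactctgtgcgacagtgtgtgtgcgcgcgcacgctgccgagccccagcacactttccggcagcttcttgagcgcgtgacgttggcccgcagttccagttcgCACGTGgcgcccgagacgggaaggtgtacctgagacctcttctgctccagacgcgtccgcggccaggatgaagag

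A window was found for 30 of the 33 genes. The E-box CACGTG, the letters bound by Myc and its relatives, was in 9 of the 30, against 7.01% of 21842 protein-coding windows and 6.42% of 33469 windows in all. The ETS motif CCGGAAGT was in 12 of the 30, against 4.78% and 3.81%. The YY1 motif AAGATGGCG and the CRE motif TGACGTCA were in 0 of the 30 (2.07% and 2.10% of protein-coding windows), and the NRF1 motif GCGCATGCG in 1 (3.3%, against 1.92%). Both strands were searched, and of 25 matches in these windows 0 overlapped another.

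The E-box lay in the windows of Ltv1, Fbl, Rrp12, Nop2, Bysl, Tsr1, Pes1, Gnl3 and Dkc1, and the ETS motif in those of Ltv1, Fbl, Gar1, Bysl, Polr1c, Imp4, Nop58, Nhp2, Tsr1, Nip7, Ddx21 and Dkc1. An E-box or an ETS motif was in 6 of the 9 called genes with a window and in 10 of the 21 genes not called. Members had a median of 19 CpG per window against 11 over protein-coding windows, with a median GC content of 55.7% against 55.0%. Letters in a window are a description and do not show that a factor binds there.

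Myclobutanil and propiconazole were given at the same dose and can be compared directly. Both have a triazole ring and a chlorinated phenyl group. Myclobutanil also carries a nitrile and a butyl chain, and propiconazole a dioxolane ring. None of the 33 genes differed between them in limma (0 called, where 0% of all probe sets were; also 0 with array weights, where 1.58% of all probe sets were called), and at an unadjusted p under 0.05 there were 0 higher and 3 lower with myclobutanil, where 4.86% and 5.26% of all probe sets were higher and lower. The 3 were Polr1b at -0.21 (95% confidence interval -0.35 to -0.08, adjusted p = 0.352), Rrp12 at -0.16 (-0.28 to -0.04, adjusted p = 0.435) and Dkc1 at -0.25 (-0.46 to -0.03, adjusted p = 0.472). In each of the 3, replicate 1, the unusual array, scored lowest of the myclobutanil arrays. Without that array the differences were -0.14, -0.11 and -0.15. The 95% confidence intervals had a median half-width of 0.186 and bounds between -0.92 and 0.37, so the lack of calls does not show that the compounds act alike on these genes.

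The direct differences leaned to one side without passing the test. With myclobutanil 27 of the 33 genes scored lower than with propiconazole and 6 higher, with a median of -0.11, where the median over all probe sets was -0.006 and 46.9% were above 0. In 7 genes all myclobutanil arrays lay below all propiconazole arrays, against 7.13% of all probe sets, and in 0 all lay above, against 6.31%. Gar1, called with both, differed by -0.08 (-0.26 to 0.11), and Gnl3, called with propiconazole, by -0.20 (-0.45 to 0.05). Triadimefon, which has a ketone and a chlorophenoxy ether in place of these groups, was given at a lower dose, so it is set beside the others with no comparison.

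Other genes of the same pathway, from lists that do not include the 33, also held calls, nearly all with propiconazole and myclobutanil. Of 132 such genes tested, 11 rose with propiconazole, 5 with myclobutanil and 1 with triadimefon, and none fell. Over all probe sets 0.810%, 1.03% and 0.488% were called higher, and the triadimefon count is near that background. The median differences of the 132 genes were 0.14, 0.09 and 0.09, and 122, 108 and 111 were above 0. Factors of 40S maturation supplied 8 of the 11 propiconazole calls, of 47 tested, with Dcaf13 at 0.57 ± 0.12 (adjusted p = 0.0414), Pno1 at 0.44 ± 0.070 (adjusted p = 0.017), Utp3 at 0.41 ± 0.085 (adjusted p = 0.0414) and Mphosph10 at 0.33 ± 0.059 (adjusted p = 0.0276). Dcaf13, Utp3 and Mphosph10 are processome proteins, and Pno1 stays with the pre-40S particle into the cytoplasm. In this list Pno1 (0.50 ± 0.070, adjusted p = 0.0113) and Bud23, an 18S methyltransferase (0.33 ± 0.049, adjusted p = 0.0118), rose with myclobutanil, and Mphosph10 (0.36 ± 0.059, adjusted p = 0.0204) with triadimefon.

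Among 46 further factors of 60S maturation, 3 rose with propiconazole. They were Nifk at 0.66 ± 0.12 (adjusted p = 0.0268), Brix1 at 0.47 ± 0.087 (adjusted p = 0.0283) and the helicase Ddx56 at 0.25 ± 0.051 (adjusted p = 0.0404). With myclobutanil Brix1 (0.41 ± 0.087, adjusted p = 0.0417) and the methyltransferase Ftsj3 (0.21 ± 0.046, adjusted p = 0.0471) rose. With triadimefon none of the 46 was called; Urb2 came closest at 0.20 ± 0.044 (adjusted p = 0.0786). Of 11 RNA exosome genes, which trim ribosomal RNA ends, Mphosph6 rose with myclobutanil (0.50 ± 0.11, adjusted p = 0.0496), and none was called with propiconazole (Mphosph6 0.28, adjusted p = 0.27) or triadimefon (Exosc3 0.29, adjusted p = 0.348).

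RNA polymerase I and the machinery of ribosomal RNA gene transcription was again without calls. In limma 0 of 19 further genes passed with any compound. Over all probe sets 1.03%, 0.810% and 0.488% were called higher with myclobutanil, propiconazole and triadimefon, and 0 of 19 is near these shares. The list averaged 0.622 to 0.644 in control and 0.654 to 0.701, 0.693 to 0.743 and 0.670 to 0.7185 with the compounds. All treated arrays thus lay above control. Of the 19 genes 11, 15 and 12 were above 0, against 44.6%, 43.4% and 43.4% of all probe sets. At an unadjusted p under 0.05, 3, 5 and 6 were higher for myclobutanil, propiconazole and triadimefon, where 9.20%, 7.73% and 7.02% of all probe sets were. At that level 1 of the 19 was lower with myclobutanil, where 11.9% of all probe sets were, and 0 with the other compounds. The smallest adjusted p values were those of Taf1d with myclobutanil (0.26 ± 0.062, adjusted p = 0.0609) and triadimefon (0.22 ± 0.062, adjusted p = 0.146) and of Polr1e with propiconazole (0.27 ± 0.077, adjusted p = 0.132). Of 9 snoRNP assembly factors 0 were called, which is also near the shares of all probe sets called higher. At an unadjusted p under 0.05, 3, 3 and 0 of them were higher, against the same 9.20%, 7.73% and 7.02% of all probe sets. Tgs1 (0.20, adjusted p = 0.114), Znhit3 (0.14, adjusted p = 0.217) and Nufip1 (0.19, adjusted p = 0.44) had the smallest adjusted p for myclobutanil, propiconazole and triadimefon.

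The ribosomal proteins themselves, the parts that these factors assemble, were not called. Of 78 listed genes 41 were tested, and 0 of these passed in limma with any compound. Over all probe sets 1.03%, 0.810% and 0.488% were called higher with myclobutanil, propiconazole and triadimefon, and 0 of 41 is near these shares. At an unadjusted p under 0.05, 15, 1 and 2 were higher with myclobutanil, propiconazole and triadimefon, where 9.20%, 7.73% and 7.02% of all probe sets were. The median difference of the 41 genes was 0.14 with myclobutanil, 0.02 with propiconazole and 0.08 with triadimefon. The smallest adjusted p was that of Rpsa with myclobutanil (0.40 ± 0.10, adjusted p = 0.0741) and of Rps13 with propiconazole (0.14, adjusted p = 0.226) and triadimefon (0.21, adjusted p = 0.0943). Between myclobutanil and propiconazole the median of the 41 was 0.12, on the opposite side of 0 from the median of -0.11 for the nucleolar genes. None of either list was called in limma, and the 41 differed most clearly in Rpl23 (0.34, adjusted p = 0.301). At an unadjusted p under 0.05, 14 of the 41 were higher with myclobutanil and 0 lower, where 4.86% and 5.26% of all probe sets were. In 31 of the 41 the difference was above 0, against 46.9% of all probe sets. Ribosomal protein probe sets can also read pseudogene transcripts, so their values are uncertain.

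Myc, the activator named above, was higher on most treated arrays but was not called. It scored 0.31, 0.09 and 0.28 in control, 1.26, 0.54 and 0.83 with myclobutanil, 0.72, 0.09 and 1.29 with propiconazole and 0.55, 1.41 and 0.92 with triadimefon. The second propiconazole rat lay at the level of control, and the treated arrays were spread widely. The differences were 0.65 ± 0.29, 0.47 ± 0.29 and 0.73 ± 0.29 (adjusted p = 0.229, 0.495 and 0.303). Among 18 growth regulators of the pathway Rb1, the retinoblastoma protein that restrains RNA polymerase I, fell by 0.22 with myclobutanil (adjusted p = 0.0496) and by 0.24 with propiconazole (adjusted p = 0.0406); the triadimefon difference of -0.24 was not called (adjusted p = 0.0531).

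Some cell cycle genes rose with myclobutanil. Of 16 tested genes 7 were called higher with myclobutanil, where 1.03% of all probe sets were. The largest were Cdk1 at 0.70 ± 0.14 (adjusted p = 0.0344), Top2a at 0.36 ± 0.072 (adjusted p = 0.0388), Ccnb1 at 0.31 ± 0.055 (adjusted p = 0.0239) and Mki67 at 0.30 ± 0.049 (adjusted p = 0.0172). At an unadjusted p under 0.05, 11 of the 16 were higher and 1 was lower, at -0.24, where 9.20% and 11.9% of all probe sets were. With propiconazole and triadimefon 0 of the 16 were called in limma. At an unadjusted p under 0.05, 8 and 5 were higher, where 7.73% and 7.02% of all probe sets were. Pcna differed by 0.43 with propiconazole (adjusted p = 0.107) and Mcm4 by 0.17 with triadimefon (adjusted p = 0.117). In the direct test of myclobutanil against propiconazole 0 of the 16 were called. At an unadjusted p under 0.05, 6 were higher with myclobutanil, where 4.86% of all probe sets were. The part of these cell cycle and Kupffer cell values in the nucleolar values was not tested.

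**Figure D3:**
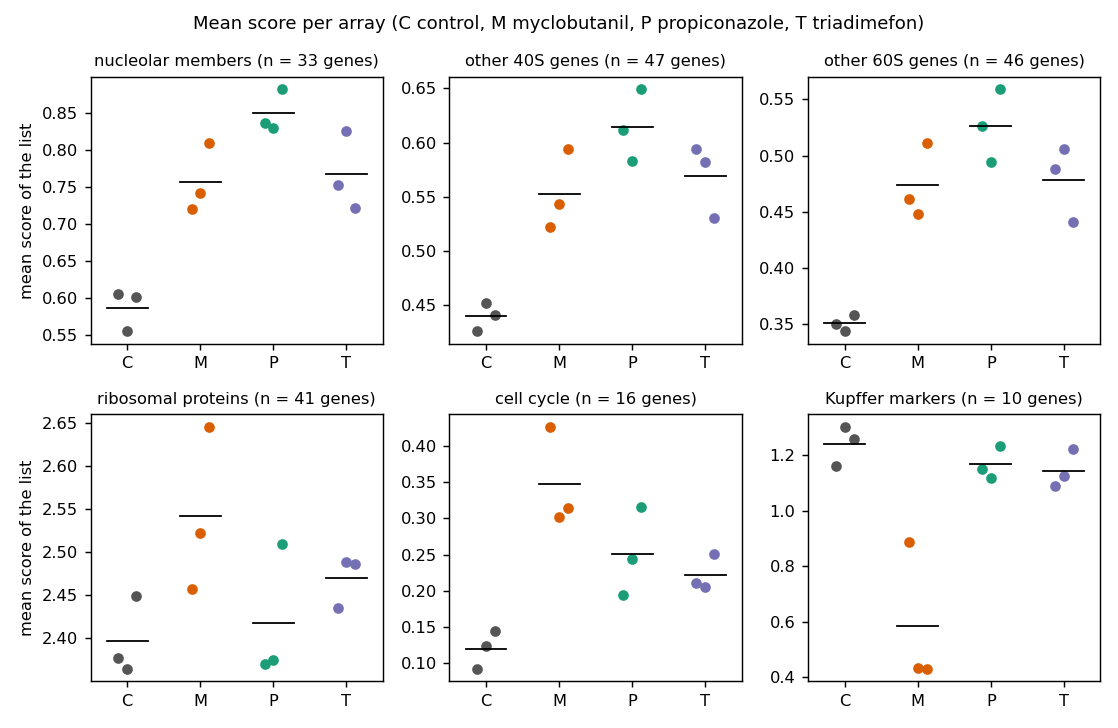
Mean score per array (vertical axis, deposited scale after quantile normalization) of 6 gene lists, with a point per rat and a bar at the mean of the 3 rats. The 33 nucleolar genes lie at 0.555 to 0.605 in control and at 0.720 to 0.882 in the treated rats, the Kupffer cell list is low with myclobutanil alone (0.430 to 0.887), and the ribosomal proteins overlap between control and propiconazole.

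The calls were lost when certain single arrays were left out, any control array among them. Whether this reflects those rats or the smaller number of arrays was not tested. Without control replicate 1, 2 or 3 the number of called members was 0 for each of the 3 compounds, and over all probe sets 90, 83 and 30 were called, against 395 with all arrays, for myclobutanil, 54, 43 and 36 against 311 for propiconazole and 10, 58 and 15 against 167 for triadimefon. Over all arrays left out in turn, the median differences stayed between 0.14 and 0.21 for myclobutanil, 0.19 and 0.26 for propiconazole and 0.09 and 0.19 for triadimefon. Other single arrays that ended all propiconazole calls were propiconazole replicates 1 and 3, and those that ended all myclobutanil calls were myclobutanil replicate 3 and propiconazole replicate 1. For triadimefon they were propiconazole replicate 1 and triadimefon replicates 1 and 2. Propiconazole calls numbered 5 without propiconazole replicate 2, and 6, 5 and 3 without triadimefon replicates 1, 2 and 3. Myclobutanil had 1 call without triadimefon replicate 2 or 3, and triadimefon 1 without myclobutanil replicate 2, propiconazole replicate 2 or 3, or triadimefon replicate 3. Of the 17 calls 0 were kept under each of the 12 arrays left out in turn. No called difference reached 0 or below under any of the 21 alternatives.

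Leaving out myclobutanil replicate 1, the unusual array, gave more calls: 7 with myclobutanil, 14 with propiconazole and 8 with triadimefon. Calls over all probe sets grew as well, to 670 (3.08%), 969 (4.46%) and 611 (2.81%). The 7 were Gar1 (0.47, adjusted p = 0.0325), Ltv1 (0.22, adjusted p = 0.0401), Nip7 (0.43, adjusted p = 0.0426), Ddx21 (0.48, adjusted p = 0.0112), Heatr1 (0.29, adjusted p = 0.0226), Tsr1 (0.48, adjusted p = 0.0165) and Gnl3 (0.46, adjusted p = 0.0366). Over all alternatives the adjusted p of Gar1 ran from 0.0151 to 0.135 with myclobutanil, from 0.00634 to 0.0922 with propiconazole and from 0.0200 to 0.189 with triadimefon.

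**Figure D4:**
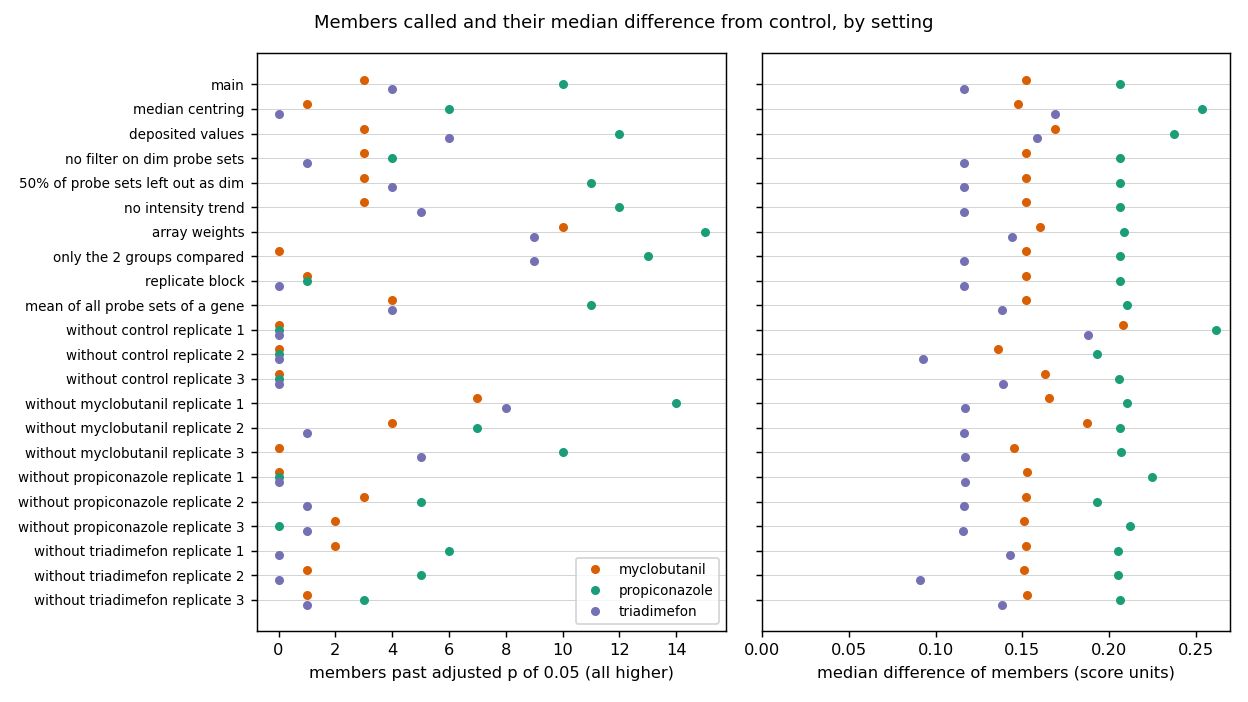
Number of members called (left panel) and median difference of the 33 genes in score units (right panel), with the processing settings down the vertical axis and 1 mark per compound. The number called runs from 0 to 10 for myclobutanil, 0 to 15 for propiconazole and 0 to 9 for triadimefon, while every median difference lies above 0.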

How the data were processed

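The 12 arrays hold liver RNA of 12 rats, 3 in each of 4 groups, and the spread behind each p-value is therefore that between rats. Values are the authors' deposited score per probe set, with log base, centring, software and normalization not given in the sources used here. The plan assumed log2 values, and the scores were used without conversion.

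Of 31099 probe sets, 57 were Affymetrix controls and were removed. After quantile normalization the 9313 with the lowest mean (30%) were removed too, and 21729 were tested. By the platform annotation 20826 probe sets named a single gene, 436 more than 1 and 9780 no gene. RefSeq's GRCr8 gene table supplied the current symbol, by gene ID, for 20758, and 68 kept their old one. limma 3.58.1 (R 4.3.3) was fitted to the 4 group means with 8 residual degrees of freedom and variances moderated along an intensity trend. The 4 comparisons were two-sided, with Benjamini-Hochberg adjustment in each. The number of arrays limits the precision. Python 3.11.15 with pandas 2.3.3 prepared the tables, and matplotlib 3.10.9 drew the plots.

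All listed genes were accounted for; members called in any comparison were given per array, then the 4 with the smallest p where fewer than 4 were called. From each other pathway list up to 4 called genes with the largest difference, or the 1 with the smallest p, were named, and Myc always. The members and all lists were chosen with earlier results of these data known. Alternatives were median centring, the deposited values, a filter of 50% or none on dim probe sets, no intensity trend, array weights, a fit of the 2 groups alone, the replicate number as a block, the mean of a gene's probe sets, and each array left out in turn. Promoter windows came from RefSeq and motifs were searched as exact letters on both strands. Same-numbered arrays of compared groups deviated with correlations of -0.494 to 0.481, so the numbers were not taken to pair the rats.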

Additional observations from a re-analysis of the deposited data

How the results depend on the processing

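The number of members called depended on the processing, while the median difference of the 33 genes kept its sign under all 21 alternatives. For myclobutanil, propiconazole and triadimefon the calls were 3, 10 and 4 as reported, 1, 6 and 0 with median centring, 3, 4 and 1 with no filter on dim probe sets, 10, 15 and 9 with array weights, 0, 13 and 9 with only the 2 groups compared, and 1, 1 and 0 with the replicate block. The share called over all probe sets moved too: it was 1.82%, 1.43% and 0.769% as reported, 1.36%, 1.02% and 0.764% with median centring, 0.979%, 0.725% and 0.499% with no filter, 7.68%, 6.04% and 4.73% with array weights, 0.0414%, 2.94% and 2.80% with only the 2 groups compared, and 0.828%, 0.557% and 0.400% with the replicate block. The deposited values, the 50% filter, the fit without an intensity trend and the mean of a gene's probe sets gave counts within 1.5 times of those reported (triadimefon 6 on the deposited values). With each array left out in turn the calls ran from 0 to 7 for myclobutanil, 0 to 14 for propiconazole and 0 to 8 for triadimefon. Their median differences then ran from 0.136 to 0.208, 0.193 to 0.261 and 0.0912 to 0.188, the last without control replicate 1. Same-numbered arrays did not deviate together in every pair, and 0, 2 and 0 of 6 arrays correlated best with their own number in the comparisons of myclobutanil, propiconazole and triadimefon with control, so the replicate block is given as a setting alone. Between myclobutanil and propiconazole 0 members were called under every alternative run, with medians of -0.153 to -0.0734.

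Of 1176 values of the 14 named members under an alternative, 940 kept direction and side of the threshold, 173 lost a call, 41 gained one and 22 changed sign, all 22 of differences that were not called. Against control with myclobutanil, these were Polr1b (0.0037 with median centring, 0.0255 on the deposited values, 0.0963 with array weights, and -0.0607 to 0.0737 with arrays left out in turn), Dkc1 (0.0229 with array weights, -0.1621 to 0.006 with arrays left out) and Rrp12 (0.0158 on the deposited values, 0.0108 with array weights, 0.108 as the mean of probe sets, -0.0652 to 0.0359 with arrays left out). With triadimefon they were Dkc1 (0.0316 with median centring, 0.021 on the deposited values, -0.112 to 0.0537 with arrays left out) and Rrp12 (-0.0028 to 0.067 with arrays left out). Between the compounds Nip7 was -0.0075 with median centring, -0.0896 with array weights and -0.0288 to 0.151 with arrays left out. The causes were not tested.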

Other observations

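Npm1, the nucleolar chaperone nucleophosmin, could not be reported as a gene because its 3 probe sets are also assigned to a pseudogene. The first in identifier order differed from control by 0.22, 0.17 and 0.17 with myclobutanil, propiconazole and triadimefon, the second by 0.31, 0.16 and 0.19, and the last by 0.02, 0.19 and 0.13. All 9 differences were above 0 and none was called in limma; the smallest adjusted p was 0.151.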
